A study of Mus musculus with 2 samples.

Results

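The Zscan4 cluster is a row of near-identical genes on mouse chromosome 7, and 5 of its members, Zscan4b, Zscan4c, Zscan4d, Zscan4e and Zscan4f, were followed here among 47643 genes counted. They were taken by symbol from the GENCODE M21 annotation and were chosen by their counts, all of them being lower in replicate 2 than in replicate 1. That difference is therefore described and not tested. The data are polyA RNA counts of a mouse embryonic stem cell line, E14 (129/Ola background, blastocyst origin). Its genotype is given as AGO1&AGO2 Double KO, a loss of Ago1 and Ago2, which encode Argonaute proteins that carry microRNAs to their targets. Both libraries carry this genotype. Cells with intact Argonaute genes were not analysed here, and the values describe these knockout cultures without measuring what the knockout does. Culture was on 0.2% gelatine in medium with 15% serum and LIF at 100 U/mL, a cytokine that maintains self-renewal, and 1 ug of total RNA went into each reverse-stranded library. Nothing in the labels tells if these were different cultures or different clones, so every SD measures only the spread between these samples (n = 2), which may be technical.

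Zscan4 genes encode nuclear proteins with a SCAN domain, which pairs such proteins with each other, and zinc fingers that bind DNA. They are switched on in the mouse embryo at the 2-cell stage. In embryonic stem cell cultures they mark a rare and passing state in which genes of the cleavage-stage embryo reappear, and they are known for lengthening telomeres by recombination and for loss of DNA methylation during that state. Where few cells of a culture carry most of the transcripts, a bulk level sums a small population. The share of such cells was not measured in these cultures, and fewer such cells and less RNA per cell cannot be told apart.

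The members differ so little in sequence that single counts need care, and the sequences below show why. In GRCm38, the build named in the submitters' processing notes and used by the annotation, 9 genes carry the name Zscan4 between positions 10794242 and 11614112 of chromosome 7, a stretch of 820 kb. The count files analysed here list 5 of them. Zscan4a, Zscan4-ps1, Zscan4-ps2 and Zscan4-ps3 were not analysed here. All 5 members have 4 exons in the transcript with the longest coding sequence, which is 1521 bases long in Zscan4c, Zscan4d and Zscan4f and 1518 bases in Zscan4b and Zscan4e. Translated, every one of them holds 4 matches to the zinc finger pattern of cysteine and histidine pairs, the first at residue 397 in the longer form and 396 in the shorter. RefSeq lists Zscan4e as a pseudogene, whereas GENCODE M21 lists it as protein-coding. The longest stretch that is identical in all 5 coding sequences is 115 bases and closes the coding sequence. It holds the last of the zinc finger matches, which begins at residue 482 in the longer form, and the stop codon, and it is printed without capitals because no base in it differs. It lies in exon 4 of each gene, on the minus strand at chr7:10900797-10900911 in Zscan4b, chr7:11161921-11162035 in Zscan4d and chr7:11306426-11306540 in Zscan4e, and on the plus strand at chr7:11009882-11009996 in Zscan4c and chr7:11402075-11402189 in Zscan4f. Zscan4-ps1, Zscan4-ps2 and Zscan4-ps3 hold it as well.
Stretch shared by the 5 members: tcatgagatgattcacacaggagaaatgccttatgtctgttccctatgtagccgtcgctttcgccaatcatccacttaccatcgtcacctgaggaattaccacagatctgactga
A read from this stretch fits every member.

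A varied stretch of 100 bases of the coding sequence is shown for comparison. Among windows without a gap and within a single exon, these bases held the most distinct sequences and then the most differing positions. They cover coding positions 625 to 724, in exon 4, and capitals mark the 11 positions at which the members differ. Zscan4b lies at chr7:10901591-10901690, Zscan4d at chr7:11162718-11162817 and Zscan4e at chr7:11307220-11307319 on the minus strand, and Zscan4c at chr7:11009100-11009199 and Zscan4f at chr7:11401293-11401392 on the plus strand.
Zscan4b: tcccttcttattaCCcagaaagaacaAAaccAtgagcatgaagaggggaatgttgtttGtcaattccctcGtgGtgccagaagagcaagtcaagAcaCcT
Zscan4c: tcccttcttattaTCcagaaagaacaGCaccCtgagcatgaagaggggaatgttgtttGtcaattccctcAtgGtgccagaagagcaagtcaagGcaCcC
Zscan4d: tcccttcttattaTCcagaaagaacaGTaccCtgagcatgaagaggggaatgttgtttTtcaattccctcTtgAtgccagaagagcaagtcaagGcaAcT
Zscan4e: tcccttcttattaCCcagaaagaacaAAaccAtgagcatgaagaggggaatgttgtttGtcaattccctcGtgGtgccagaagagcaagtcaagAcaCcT
Zscan4f: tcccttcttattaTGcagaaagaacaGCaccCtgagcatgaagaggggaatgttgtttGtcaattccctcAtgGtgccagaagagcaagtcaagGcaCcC
Even here only 4 different sequences occur among the 5 genes, because Zscan4b and Zscan4e are the same throughout. Zscan4c and Zscan4f differ at 1 position, written as the base of Zscan4c, the position counted from 1 at the left end of the printed window and the base of Zscan4f, C15G. Along the whole coding alignment of 1521 columns, 62 columns differ among the members and 3 hold a gap.

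Identity sorted the members into a pair, a second pair and 1 gene that stands apart. Zscan4b and Zscan4e, the shorter forms, shared 99.7% of 1722 aligned transcript bases and differed at 2 of 505 residues. Zscan4c and Zscan4f shared 99.5% of 1806 aligned transcript bases and differed at 3 of 506 residues. Zscan4d was the most distant, with a protein identity between 92.7% to Zscan4b and 94.7% to Zscan4c. Over all 10 pairs of members transcript identity ran from 96.6 to 99.7%. By transcript the closest relative of Zscan4f was not a member: Zscan4-ps2 differed from it at 4 of 1806 aligned bases. By protein Zscan4c was closer, with 3 differing residues against 4 for Zscan4-ps2.

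Cut into overlapping windows of 50 bases, about the length of a short read, 90.1% of the transcript windows of Zscan4b recurred in at least 1 other annotated gene, as did 85.5% of those of Zscan4c, 89.0% of Zscan4e and 86.8% of Zscan4f. Zscan4d was lower at 49.6%. That left 178 windows particular to Zscan4b, 322 to Zscan4c, 197 to Zscan4e, 258 to Zscan4f and 1121 to Zscan4d. Of the windows of Zscan4b, 85.3% also occurred in Zscan4e, and of the windows of Zscan4f, 74.3% occurred in Zscan4c and 77.1% in Zscan4-ps2. Outside genes of the Zscan4 name, 2 annotated pseudogenes of chromosome 7, Gm45551 and Gm17737, held windows of the members. How reads that match several genes were counted is not given in the sources used here, so the sum over the 5 members is the firmer value, and even the sum can hold or lose reads of the 4 relatives that were not analysed here.

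**Figure D1:**
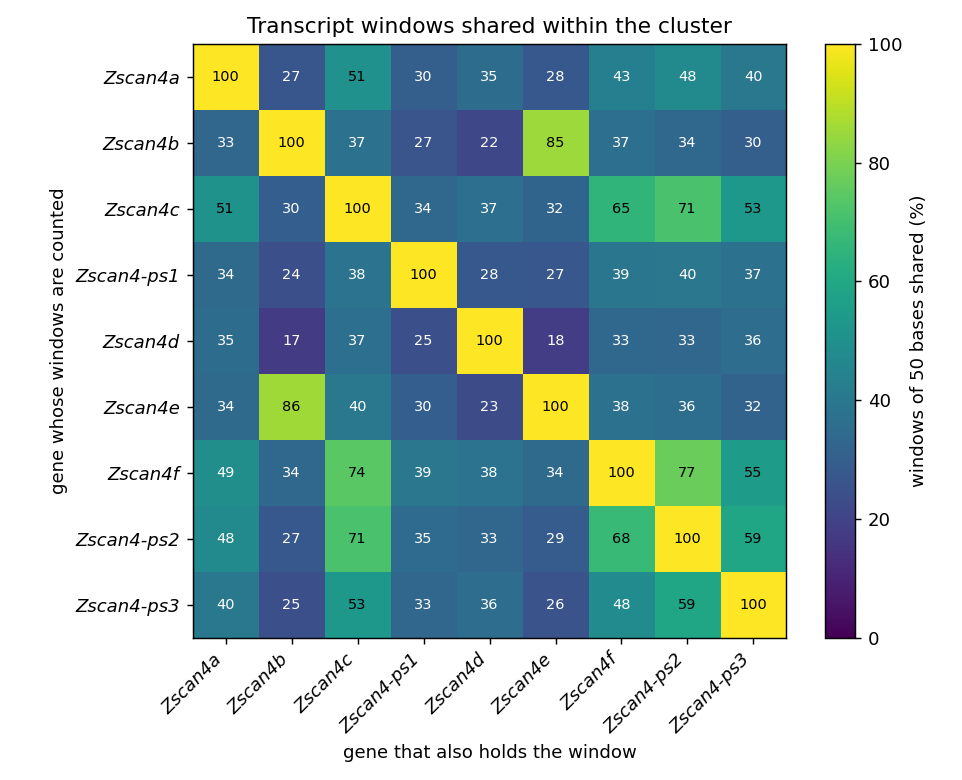
Share of each gene's transcript windows of 50 bases (rows, in %) that also occur in another gene of the cluster (columns), genes in chromosomal order. Zscan4b and Zscan4e share 85 to 86% of their windows, Zscan4f shares 77% with Zscan4-ps2 and 74% with Zscan4c, and the row of Zscan4d holds 17.5 to 36.7% for the other members.

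The start regions of the members are alike too. RefSeq's table of promoters on GRCm38.p6 (250 bases before to 50 after each start) holds 4 of the members. They are printed as 120 bases that end just past a TATA box, TATAAAA, in capitals. The reason for printing them is that the members, chosen for it, were lower together. Any part of the promoters in that difference was not tested. The windows lie at chr7:10905073-10905192 for Zscan4b and chr7:11166205-11166324 for Zscan4d on the minus strand, and at chr7:11005580-11005699 for Zscan4c and chr7:11397773-11397892 for Zscan4f on the plus strand.
Zscan4b: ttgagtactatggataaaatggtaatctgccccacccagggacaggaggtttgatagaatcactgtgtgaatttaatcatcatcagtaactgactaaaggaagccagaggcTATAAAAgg
Zscan4c: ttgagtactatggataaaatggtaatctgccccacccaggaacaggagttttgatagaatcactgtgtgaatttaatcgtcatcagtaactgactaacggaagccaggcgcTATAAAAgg
Zscan4d: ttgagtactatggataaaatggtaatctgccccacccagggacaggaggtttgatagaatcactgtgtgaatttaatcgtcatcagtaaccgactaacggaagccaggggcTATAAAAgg
Zscan4f: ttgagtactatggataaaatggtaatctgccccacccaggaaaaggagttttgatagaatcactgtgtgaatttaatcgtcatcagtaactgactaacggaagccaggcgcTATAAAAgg
Any pair of these windows differed at 1 to 7 of 120 positions, an identity of 94.2 to 99.2%, with Zscan4c and Zscan4f the closest and Zscan4b and Zscan4f the farthest. The box begins 31 bases before the RefSeq start in Zscan4b and Zscan4f, 54 in Zscan4c and 65 in Zscan4d. TATAAA, searched on both strands of the full RefSeq windows, was present in all 4, against 13.6% of 32851 promoter windows of that length. The 4 promoters are near-copies, so their matches are not independent of each other and are not read against that share. None of the 4 held TGCACAC, a motif reported for Zscan4 proteins (4.40% of promoters), GGGCGG, the GC box (35.7%), or the DUX4 consensus with its pyrimidine positions left unspecified (1.03%), and an absence says only that these letters are not in this window.

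The libraries held 34798975 gene counts in replicate 1 and 29789560 in replicate 2, so 3 counts, taken as the floor, equal 0.0862 and 0.101 CPM (counts scaled by the library total of gene counts to the same sum in each library). Intervals below are 95% exact Poisson or Clopper-Pearson intervals and cover counting error only. The markers of the labelled cell type were present: all 14 stem cell markers stood at 1 CPM or more in both libraries, with means over the libraries from 55.4 to 2915 CPM. Of 14 fibroblast markers 5 reached 1 CPM in both libraries, and Col3a1, Lum, Postn and Prrx1 had no count. Of 10 extraembryonic endoderm markers 1 reached 1 CPM and of 11 trophoblast markers 5 did. Summed CPM was 60.0 in replicate 1 and 53.6 in replicate 2 for the fibroblast list, 8.13 and 6.11 for the endoderm list and 253 and 224 for the trophoblast list. Reads were assigned to both targeted genes, with Ago1 at 70.8 and 141 CPM and Ago2 at 124 and 129 CPM, which checks neither label because counts over whole genes do not show an edited exon. Ago1, with 2463 and 4205 counts, was past 1.5-fold higher in replicate 2, opposite in direction to the Zscan4 genes. Whether the libraries differ in their edited alleles was not tested. Mitochondrial genes took 3.03 and 3.08% of counts.

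The 5 members together held 13082 counts in replicate 1 and 5667 in replicate 2. This equals 376 CPM (95% interval 370 to 382) and 190 CPM (185 to 195), a mean of 283 ± 131 CPM. Replicate 1 was the higher library, which is how the members were chosen. As a share of all gene counts the cluster took 0.0376% in replicate 1 and 0.0190% in replicate 2.

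Zscan4f, the member at the distal end of the group counted (ENSMUSG00000070828; chromosome 7, 11397915 to 11402318, plus strand), had the most counts in both libraries, 5120 and 2163 counts. Its level was 147 CPM (143 to 151) in replicate 1 and 72.6 CPM (69.6 to 75.7) in replicate 2. Replicate 1 was 2.03-fold higher, a log2 ratio of replicate 2 to replicate 1 of -1.02 (95% interval -1.09 to -0.95).

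Zscan4c (ENSMUSG00000054272; 11005745 to 11010547, plus strand), whose promoter is widely used to build reporters of the 2-cell-like state, came next with 2960 and 1316 counts. It stood at 85.1 CPM (82.0 to 88.2) and 44.2 CPM (41.8 to 46.6), with a log2 ratio of -0.94 (-1.04 to -0.85). Zscan4d (ENSMUSG00000090714; 11161374 to 11166159, minus strand), known as the main form of the 2-cell embryo, was counted 1989 and 907 times, which is 57.2 CPM (54.7 to 59.7) and 30.4 CPM (28.5 to 32.5). Its log2 ratio was -0.91 (-1.02 to -0.79). Replicate 1 was the higher library for both genes, as the choice of members requires.

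The shorter forms had the fewest counts. Zscan4e (ENSMUSG00000095936; 11306378 to 11310682, minus strand) was counted 1762 and 707 times, which is 50.6 CPM (48.3 to 53.1) and 23.7 CPM (22.0 to 25.5), and the lowest log2 ratio of the members at -1.09 (-1.22 to -0.97). Zscan4b (ENSMUSG00000095339; 10900740 to 10905050, minus strand) was counted 1251 and 574 times, which is 35.9 CPM (34.0 to 38.0) and 19.3 CPM (17.7 to 20.9), and the highest at -0.90 (-1.04 to -0.76). Counts followed the order Zscan4f, Zscan4c, Zscan4d, Zscan4e, Zscan4b in both libraries, and within a library the counting intervals of neighbours in that order did not overlap. Over the libraries the means were 109.9 ± 52.7, 64.6 ± 28.9, 43.8 ± 18.9, 37.2 ± 19.0 and 27.6 ± 11.8 CPM (SD, n = 2) in the same order, and no neighbouring pair differed by more than the larger of its SDs. Each SD holds the difference between libraries for which the members were chosen, so it does not measure uncertainty in their order.

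**Figure D2:**
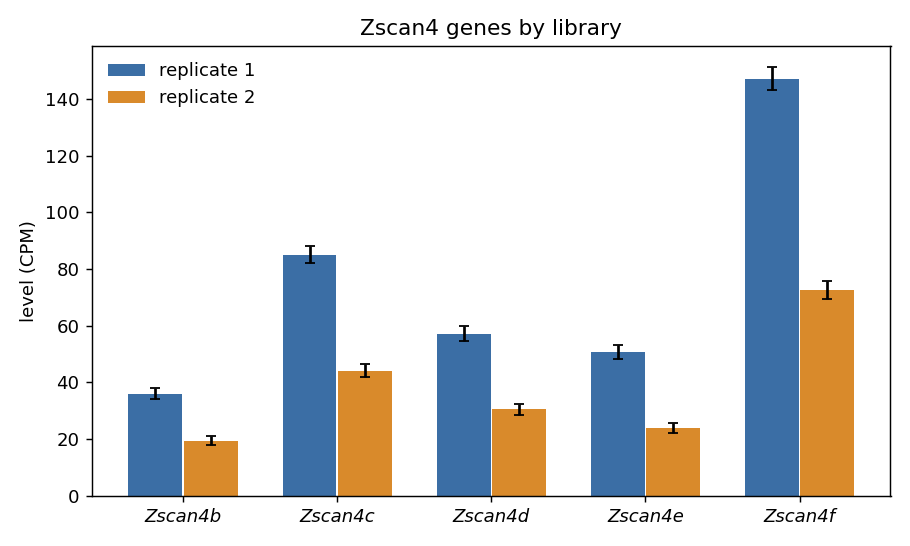
Level of each Zscan4 gene in CPM (vertical axis) in replicate 1 and replicate 2, with bars for the single libraries and error bars for the 95% exact Poisson interval. Every gene stands higher in replicate 1, from 35.9 to 147 CPM against 19.3 to 72.6 CPM in replicate 2.

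Scaled to exon length, which allows genes to be compared with each other, Zscan4f stood at 208 TPM (transcript abundance per exon length, scaled to the same total in each library) in replicate 1 and 102 TPM in replicate 2, and Zscan4c at 103 and 53.4 TPM. Zscan4e had 78.1 and 36.4 TPM and Zscan4d 69.5 and 36.9 TPM, so these neighbours changed places between the libraries and their order is not settled. Zscan4b was last with 55.1 and 29.4 TPM. When counts were divided instead by the number of 50-base windows found in no other gene, Zscan4d dropped from 34.8% of the level of Zscan4f to 9.30%, below Zscan4b at 36.9%, while Zscan4c was at 47.5% (51.1% in TPM) and Zscan4e at 43.9% (36.7% in TPM). The place of Zscan4d in the order of levels therefore depends on the length used, whereas Zscan4f and Zscan4c led under either scaling. The second scaling was run with windows of 50 bases only. With windows of 100 bases, 592 were particular to Zscan4c and 325 to Zscan4e, so second place may depend on the window length too. Both scalings rest on the reference sequence and not on that of these cells.

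The make-up of the summed count was close to the same in both libraries. Zscan4f gave 39.1% of the members' counts in replicate 1 (38.3 to 40.0%) and 38.2% in replicate 2 (36.9 to 39.4%), and Zscan4c 22.6% (21.9 to 23.4%) and 23.2% (22.1 to 24.3%). Zscan4d gave 15.2% (14.6 to 15.8%) and 16.0% (15.1 to 16.99%), Zscan4e 13.5% (12.9 to 14.1%) and 12.5% (11.6 to 13.4%), and Zscan4b 9.56% (9.06 to 10.1%) and 10.1% (9.36 to 10.9%). The largest difference between the libraries, replicate 2 minus replicate 1, was -0.99 percentage points for Zscan4e, and the intervals of the libraries overlapped for each member. The members share sequence, and if reads from it were counted, the shares are not independent of each other.

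The ratio of the libraries was nearly the same for all 5 members. The summed log2 ratio was -0.98 (-1.03 to -0.94), a 1.98-fold difference, and the members ran from -1.09 to -0.90, a span of 0.19. All 5 were past 1.5-fold lower in replicate 2, the fold used throughout to call a gene with no test. Over all 19078 genes with at least 10 counts in total 9.21% were past 1.5-fold lower and 5.63% past 1.5-fold higher, and 3.54% of the 13553 genes with at least 100 counts were lower. The members were picked for this difference, so their count is not read against those shares. The median log2 ratio over all genes tested was -0.01. Among the 4461 genes with a mean level between those of Zscan4b and Zscan4f, the median absolute log2 ratio was 0.09, and 31 were past 1.5-fold lower, the 5 members included. These values too describe the setting of members chosen for their ratio, and do not show that the ratio is unusual.

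**Figure D3:**
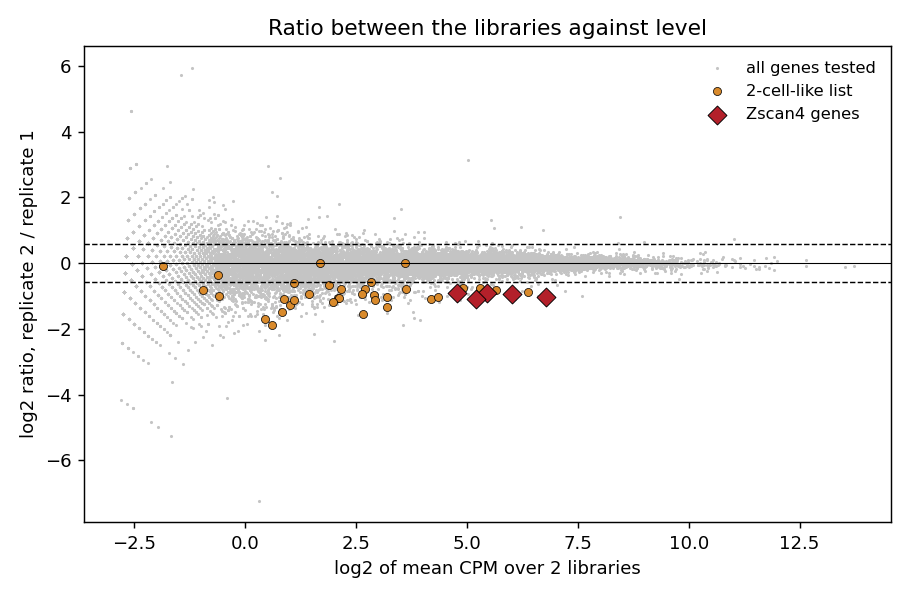
Log2 ratio of replicate 2 to replicate 1 (vertical axis) against log2 of the mean CPM (horizontal axis) for all 19078 genes tested (grey), the 2-cell-like list (orange) and the Zscan4 genes (red), with dashed lines at 1.5-fold. The Zscan4 genes, which were chosen for being lower in replicate 2, lie between -1.09 and -0.90.

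Beside the members, 7 genes of that level range had a ratio as low as theirs, and they are named here after their values were seen. They were Gm13230 (-1.13), Igf2bp3 (-1.10), which encodes an RNA-binding protein, Zfp981 (-1.07), Utp6 (-0.99), Zfp992 (-0.97), Gm8994 (-0.94) and Klhl22 (-0.94). None lies in the cluster, and Gm13230 and the zinc finger genes Zfp981 and Zfp992 all lie on chromosome 4. By nearness of the log2 ratio to that of the summed cluster, over 2 libraries and among genes with at least 100 counts, the most similar were Gm26624, Utp6, Chst15, Tfr2 and 1 gene ID without a symbol in the annotation. All lay within 0.00493 of the sum. Utp6 had 4512 and 1950 counts, and the others had at most the 135 and 58 counts of Tfr2. With 2 libraries a pattern is a single ratio, so likeness on this measure is easily met.

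The other genes counted in or near the cluster were nearly without reads, which does not show that the sequence between the members is silent. Between the first and last Zscan4 gene the only others counted were the annotated microRNA genes Mir297-1, Gm26248 and Gm23087, of 76 to 121 bases. The remaining annotated genes there were not analysed here. Within the cluster and 200 kb on either side the annotation places 73 genes, of which 18 are counted here, 13 of them other than Zscan4 genes. Vomeronasal receptor genes such as Vmn1r71 and Vmn1r72 and the oocyte gene Nlrp4b, which flank the cluster, had no count in either library. Only 2 of the 13 had any count, the pseudogene Gm6900 with 119 and 94 counts and the annotated microRNA gene Gm26248 with 3 and 0. Gm6900 stood at 3.42 and 3.16 CPM, so its level was close in the libraries.

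**Figure D4:**
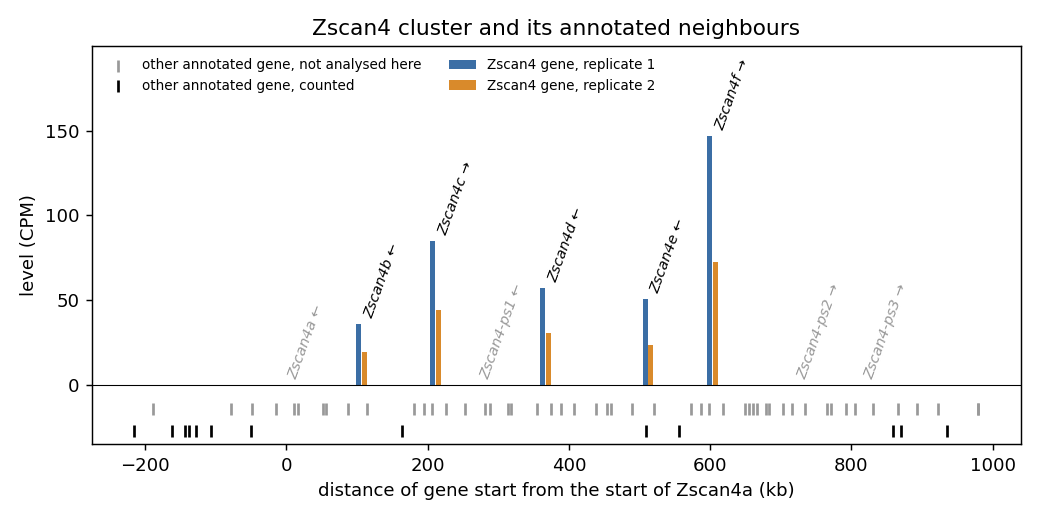
Map of the cluster, with the distance of each gene's lower coordinate from that of Zscan4a in kb (horizontal axis), the level of the 5 Zscan4 genes in CPM as bars for replicates 1 and 2, and ticks below 0 for other annotated genes. Arrows give the strand, and names in grey are Zscan4 genes that were not analysed here. The Zscan4 genes have levels of 19.3 to 147 CPM. Counted neighbours, which hold few or no counts, are annotated microRNA genes inside the cluster and other genes outside it.

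Genes that are known to accompany Zscan4 in the 2-cell-like state were mostly lower in replicate 2 too. Of 41 listed symbols 37 were found and 34 were tested. Of these, 29 were past 1.5-fold lower and 0 past 1.5-fold higher, with a median log2 ratio of -0.96, beside 9.21% lower and a median of -0.01 over all genes tested. The contrast is the one that chose the members, so these are descriptions. The highest in CPM were Gm21761 (107 and 58.6 CPM, log2 ratio -0.87), Gm5662 (64.4 and 36.9 CPM, -0.80) and Gm2016 (49.3 and 29.2 CPM, -0.75). The lowest ratios among genes with at least 100 counts were those of Duxbl2 (84 and 19 counts, -1.89) and Tdpoz3 (327 and 95 counts, -1.55). Every 50-base window of Duxbl2 (100%) occurs in another gene, and its near-copy Duxbl3 had 112 and 97 counts (0.02), so these single values are uncertain. Duxf3, the mouse Dux gene that encodes a homeodomain activator of Zscan4 transcription, had 88 and 35 counts, a log2 ratio of -1.09 (-1.71 to -0.53).

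Many of these genes also belong to families of near-copies, so the list was split after the values were seen by the share of 50-base windows found in other genes. With less than 5% shared, 7 of 8 tested genes were past 1.5-fold lower and the median log2 ratio was -0.90. With more, 22 of 26 were lower and the median was -0.96. Over all genes tested 9.21% were lower. Tmem92, a membrane protein gene of the cleavage stage, had 540 and 269 counts (-0.78), B020031M17Rik had 362 and 143 (-1.11), Spz1 had 73 and 19 (-1.69) and Usp26 had 92 and 28 (-1.47). Ddit4l was the exception, with 425 and 367 counts and a ratio of 0.01.

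Regulators and partners of Zscan4 had log2 ratios around 0. Of 42 listed genes, which encode activators, repressors and binding partners, 41 were found and tested, with 0 past 1.5-fold lower and 0 past 1.5-fold higher and a median log2 ratio of 0.02. Over all genes with at least 100 counts 3.54% were lower, a share at which a list of this size would hold few called genes, so the count of 0 sets the list apart from nothing. Among activators, Dppa2, which encodes a DNA-binding protein that turns on Dux, stood at 135 and 133 CPM (log2 ratio -0.03), and its partner gene Dppa4 at 149 and 159 CPM (0.09). Nelfa, a subunit gene of the negative elongation factor linked to the 2-cell-like state, had the lowest ratio of the list with at least 100 counts, -0.42 (-0.49 to -0.34), from 104 to 77.9 CPM. Among repressors, Trim28, the co-repressor recruited by zinc finger proteins, stood at 1457 and 1399 CPM (-0.06), and Chaf1b, a subunit gene of the histone chaperone CAF-1, at 79.0 and 70.5 CPM (-0.17). Rif1, which restrains Zscan4 through heterochromatin, stood at 515 and 545 CPM (0.08). Uhrf1 and Dnmt1, genes of maintenance DNA methylation whose proteins are lost from cells in the Zscan4 state, had log2 ratios of -0.01 and -0.07. With Trim28, the highest of the list in CPM were Ncl, which encodes nucleolin (0.09), and Tet1, which encodes an enzyme that oxidises methylated cytosine (0.20).

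Other genes with a SCAN domain had a median log2 ratio of 0.00. Of 31 tested, 2 were past 1.5-fold lower and 1 higher, near the shares of 9.21% and 5.63% over all genes tested. Zscan10, a partner of pluripotency factors, stood at 104 and 105 CPM (0.01), and Peg3 (0.05) and Zfp110 (0.13) were the next highest in CPM. Zscan5b was lower with 474 and 142 counts, a log2 ratio of -1.51 (-1.80 to -1.24), and Zkscan4 with 11 and 2 counts, whereas Scand1 was higher with 52 and 146 counts (1.70). Zscan29 had a ratio of -0.45.

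Genes that maintain telomeres, the process most tied to Zscan4, had a median log2 ratio of -0.04. Of 17 tested, 0 were past 1.5-fold in either direction, which at 3.54% lower among all genes with at least 100 counts is no result about the list. Terf1, a shelterin gene, stood at 117 and 119 CPM (0.02), Rtel1, a helicase gene, at 155 and 148 CPM (-0.06), and the chromatin remodeller gene Atrx at 383 and 379 CPM (-0.01). The lowest ratios were those of Pot1a (-0.19) and Tert (-0.17), the latter encoding the catalytic subunit of telomerase. Of the meiotic recombination genes in the list, Spo11 had 0 and 1 counts, which is below the floor, and Dmc1 had 587 and 449 counts (-0.16). Of the stem cell markers 0 of 14 were past 1.5-fold, with a median of 0.05. Pou5f1, which encodes Oct4, stood at 1421 and 1329 CPM (-0.10). Fibroblast markers had a median log2 ratio of -0.10, with 4 of 7 tested genes below 0. Extraembryonic endoderm markers had one of -0.37, with 6 of 8 tested genes below 0, and trophoblast markers one of -0.31, with 8 of 9. Over all genes tested 9837 of 19078 were below 0. Of the endoderm and trophoblast markers, 2 of 8 and 2 of 9 were past 1.5-fold lower, beside 9.21% of all genes tested. These had few counts: Gata6 8 and 3, Dab2 18 and 7, Elf5 20 and 11 and Gcm1 12 and 4. The tested markers of these lists not below 0 had few counts too: Sox7 8 and 10 (0.53), Apoa1 7 and 6 (0.02) and Cdx2 5 and 6 (0.47). With more counts, Gata4, an endoderm transcription factor gene, had 201 and 129 (-0.41), the trophoblast gene Ascl2 170 and 98 (-0.57) and the keratin gene Krt18 2202 and 1414 (-0.41). Their part in the results on Zscan4 was not tested.

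**Figure D5:**
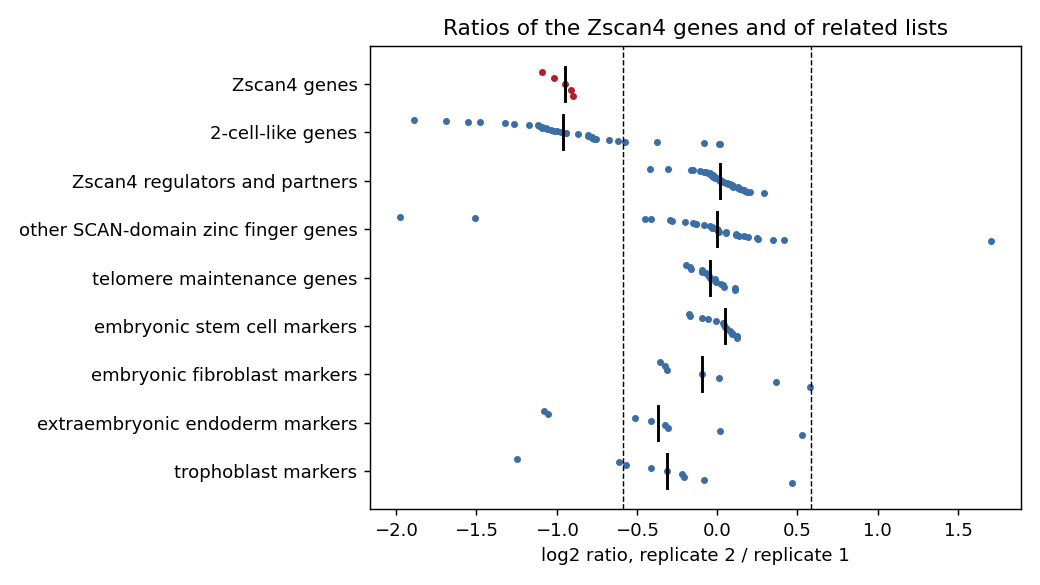
Log2 ratio of replicate 2 to replicate 1 (horizontal axis) for each tested gene of the lists (points) with the median of each list (black bar) and dashed lines at 1.5-fold. The Zscan4 genes and the 2-cell-like list have medians of -0.94 and -0.96, and the lists of regulators, SCAN-domain, telomere and stem cell genes have medians between -0.04 and 0.05. Fibroblast, trophoblast and endoderm markers have medians of -0.10, -0.31 and -0.37.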

How the data were processed

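Raw counts per Ensembl gene, as deposited by the authors, were used for 2 libraries of 1 genotype. STAR 2.4.2a and the mm10 (GRCm38) build are named in the submitters' processing notes. No source used here gives the counting tool, its strand setting or its treatment of reads that match several genes. Of 47643 gene IDs 47224 were named with GENCODE M21. CPM used the library total of gene counts, and TPM the union of exons. Log2 ratios used a pseudocount of 0.5 counts and genes with at least 10 counts in total; their intervals come from the exact binomial distribution. Transcripts were aligned with MAFFT 7.526. Windows were compared on both strands with all annotated transcripts. The calculations were tested on simulated data. Genes were named by a rule: the members, their neighbours and the 5 nearest in ratio. Of each list the rule took the 3 most abundant genes and the 2 with the lowest ratio among those with at least 100 counts. Marker lists are given by counts. Outside this rule, Duxf3, genes of the regulator and telomere lists, called genes and endoderm and trophoblast markers not below 0 were named with their values known. The symbols Zfp809, Gabarapl2, Lmx1a and Trf1 were taken off the 2-cell and telomere lists after the files were opened and before list values were computed. Members and lists were chosen with earlier results of these data known. Alternatives used edgeR 4.0.16, DESeq2 1.42.0 and statsmodels 0.14.6.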

Additional observations from a re-analysis of the deposited data

How the results depend on the processing

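The summed log2 ratio stayed between -1.04 (a lowess trend on GC content removed) and -0.98 under edgeR's TMM, DESeq2 size factors, totals without mitochondrial genes and a pseudocount of 5, and each member stayed past 1.5-fold lower. Counts of genes past 1.5-fold depended on the filter: with at least 1 count 4616 were lower and 3692 higher, and with at least 100 counts 480 and 157, against 1758 and 1075. Shared windows of 100 bases made up 76.3% of Zscan4b, 72.8% of Zscan4c, 29.6% of Zscan4d, 81.5% of Zscan4e and 80.6% of Zscan4f, and windows of 30 bases 95.4, 91.9, 66.0, 94.0 and 92.0%, in the same order, as longer windows are less often repeated. Without replicate 1 or without replicate 2, levels are those of the single library: 190 or 376 CPM for the sum. The files list no further Zscan4 gene, so summing all of them gave the same value. No paired analysis was possible because there is 1 group. With 2 libraries of 1 genotype nothing here separates a culture from a library.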
